A study of Mus musculus with 75 samples.

Results

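The levels of 10 alpha and beta tubulin genes were followed through 75 single cochlear cells of the mouse. These were the alpha genes Tuba1a, Tuba1b, Tuba1c and Tuba4a, and the beta genes Tubb2a, Tubb2b, Tubb3, Tubb4b, Tubb5 and Tubb6. They were taken by name, as 10 of the 55291 genes in the raw count table. The cells came from a study of whether adult supporting cells (SCs) of the cochlea can be turned into outer hair cells (OHCs). The cells formed 5 groups, all labelled C57BL/6. The 17 WT_P30 OHCs carried Slc26a5-CreER with the Ai9 reporter, received tamoxifen at P20 and P21, and were collected at postnatal day 30. The 16 WT_P60 SCs carried Fgfr3-iCreER with Ai9, received tamoxifen at P30 and P31, and were collected at postnatal day 60. The remaining 42 cells were Tdtomato+ cells, also from postnatal day 60, of mice with the label Fgfr3-Atoh1-Ikzf2-DTR. These mice carried Fgfr3-iCreER, which acts mainly in pillar and Deiters' cells, CAG-LSL-Atoh1 as a transgene, Ikzf2 behind Rosa26-CAG-LSL, and Slc26a5-DTR. Tamoxifen at P30 and P31 switched on Atoh1 and Ikzf2, and diphtheria toxin at P36 removed the endogenous OHCs. After sequencing, the authors divided these cells by their Myo7a and Prestin (Slc26a5) RNA into 16 nascent HCs, 11 OHC-like cells and 15 SCs that were failing to become HCs, called failing SCs here. These 3 groups therefore share every allele and agent and differ by an RNA readout, not by a treatment.

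Alpha and beta tubulin form heterodimers, and heterodimers assemble end to end and side by side into the hollow microtubule. Mammals hold several genes, called isotypes, for each subunit, and the proteins differ mostly in the acidic tail at the C-terminus, where many modifying enzymes and associated proteins act. Pillar cells and Deiters' cells are known for thick bundles of microtubules that stiffen them, whereas hair cells carry their actin-based stereocilia over a looser microtubule network. In the mammalian cochlea, only immature hair cells keep a kinocilium.

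How well reads tell these genes apart differs between members, so the last 90 coding bases are shown for the 4 beta genes that the results turn on. They include the stop codon and were read from the reference transcripts of GENCODE M21 (GRCm38). Capitals mark bases that differ, in an alignment of the whole coding sequences, from Tubb2a.
Tubb2a: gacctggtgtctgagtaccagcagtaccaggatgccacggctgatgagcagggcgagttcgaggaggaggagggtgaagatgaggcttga
Tubb2b: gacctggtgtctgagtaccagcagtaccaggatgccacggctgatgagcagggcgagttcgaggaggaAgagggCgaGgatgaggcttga
Tubb4b: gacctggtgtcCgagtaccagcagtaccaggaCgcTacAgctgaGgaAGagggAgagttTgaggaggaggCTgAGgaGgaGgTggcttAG
Tubb3: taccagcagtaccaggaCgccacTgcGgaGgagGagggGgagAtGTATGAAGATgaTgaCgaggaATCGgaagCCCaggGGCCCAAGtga

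The ends of Tubb2a and Tubb2b differed at 3 bases, while that of Tubb4b differed from Tubb2a at 18 and that of Tubb3 at 34. Over the whole coding sequence, Tuba1a and Tuba1b were 98.3% identical, Tuba1b and Tuba1c 97.9%, and Tubb2a and Tubb2b 96.5%. Tuba4a shared 84.7% of its coding bases with Tuba1a, and Tubb4b 83.6% with Tubb2a. The untranslated ends and introns were not part of this count and can separate close copies. Of all stretches of 100 bases in its transcripts, Tuba1a had 65.8% in common with some other gene, Tuba1b 65.2%, Tuba1c 46.0%, Tubb2a 36.9%, Tubb2b 26.0% and Tubb4b 22.0%, the last mostly with a pseudogene. Tubb3, Tubb5 and Tubb6 had 0 such stretches. Reads of Tuba1a, Tuba1b and Tuba1c, and those of Tubb2a and Tubb2b, may therefore be split among each other, and levels within each of these sets are uncertain. How the counting treated reads that align to several genes is not stated in the sources used here. Tuba4a shared 1379 exon bases with Stk16, a kinase gene on the opposite strand, and the use of strand in counting is not stated either. Stk16 itself had mean levels of 60.2 counts per 1000000 reads (CPM) in OHCs, 49.1 in WT_P60 SCs, 65.6 in OHC-like cells, 75.3 in nascent HCs and 27.0 in failing SCs.

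In the files' build, GRCm38, Tuba1b lies at chr15:98931425-98934565 and Tuba1a at chr15:98949837-98953703, both on the reverse strand, and Tuba1c at chr15:99029891-99038110 on the forward strand. Tubb2a (chr13:34074274-34078007) and Tubb2b (chr13:34126748-34130466) are also close neighbours, both on the reverse strand. Tuba4a lies at chr1:75214228-75219865, Tubb4b at chr2:25222160-25224702 and Tubb5 at chr17:35833921-35838306, each on the reverse strand, and Tubb3 at chr8:123411424-123422015 and Tuba8 at chr6:121210696-121226854, both on the forward strand. All are protein-coding genes in GENCODE M21, and the release used for counting is not stated. Gm49450, another protein-coding gene on the same strand, shares 473 exon bases with Tuba1a and 426 with Tuba1b. It had 0 counts in every group.

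Each library was 1 hand-picked cell, amplified with a Smart-Seq HT kit without molecular identifiers, and each count stands for a read. Total counts per cell ran from 4264780 to 22934062, with the highest medians in OHC-like cells and nascent HCs. The labels name no animal, so each group is 1 sample. No test across cells was run, and the SD and range describe cells. Intervals of detection treat the cells of a group as draws from 1 sample, and floors cover counting error only. Levels are CPM of the library size scaled by the trimmed mean of M values (TMM). Every OHC was in 1 library run, every WT_P60 SC in another, and the 42 cells of the mouse model in 5 others. Cell type, age and run cannot be told apart between OHCs and WT_P60 SCs, and genotype and run cannot be told apart between wild-type and model cells. Within the model, run C held 10 of the 15 failing SCs, 1 nascent HC and 0 OHC-like cells. Runs B and D held 5 and 3 of the 11 OHC-like cells and 0 failing SCs. Differences of OHC-like cells and nascent HCs from failing SCs over all cells are therefore largely also differences between runs. The OHC markers Slc26a5 (1668 CPM) and Ocm (27448 CPM) fitted the label of the OHCs, and all 7 SC markers reached 10 CPM in WT_P60 SCs. Summed SC markers were 159 to 881 CPM in OHC-like cells against 2264 to 13902 CPM in WT_P60 SCs. Summed OHC markers were 81.3 to 6613 CPM in OHC-like cells against 11323 to 42184 CPM in OHCs. OHC-like cell 1, the lowest, held 31.3 CPM of Slc26a5, 50.0 of Myo7a and 0 of Ocm. Summed markers of cell division had a median of 0 in every group and reached at most 73.1 CPM, in a nascent HC. Macrophage and fibroblast lists reached at most 37.9 CPM in any cell. Hemoglobin genes summed to 2687 CPM in OHC-like cell 2. Otof, an inner hair cell marker, had a mean of 435 CPM in OHCs, and Pecam1 had means of 78.3 CPM in WT_P60 SCs and 14.5 in OHCs. The 7 neuronal markers summed to 0.643 to 871 CPM in OHCs, 0 to 2.17 in WT_P60 SCs, 0 to 654 in OHC-like cells, 0 to 753 in nascent HCs and 0 to 1015 in failing SCs. Snap25 led them, with means of 214, 0, 162, 144 and 67.3 CPM in that order. Rbfox3 had means of 57.8 CPM in nascent HCs and 23.6 in OHC-like cells, Nefh 24.1 in OHC-like cells, and Nefl 29.7 and Nefm 16.3 in OHCs. Mbp, a glial marker, had means of 71.8 CPM in OHC-like cells (9 of 11 cells) and 38.6 in nascent HCs (11 of 16 cells) with 0 counts in both wild types. Their part in the results was not tested.

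Tuba1a, the main alpha tubulin of many differentiated cells and of neurons, was detected (at least 1 CPM) in 74 of 75 cells. Its level was 17.1 CPM in the lowest OHC, 279 at the median and 827 in the highest. In WT_P60 SCs the lowest, median and highest values were 434, 991 and 3586 CPM. OHC-like cells ranged from 86.4 to 861 CPM with a median of 254, nascent HCs from 14.7 to 2249 with a median of 713, and failing SCs from 0 to 3270 with a median of 870. Means were 1261 ± 814 CPM (SD, n = 16 cells) in WT_P60 SCs and 292 ± 230 (SD, n = 17 cells) in OHCs, 4.31-fold lower on group means with 1 CPM added, the scale of every fold below. Cells of both groups overlapped, although 13 of 17 OHCs lay below every WT_P60 SC. The 4-fold size rested on WT_P60 SCs 4 and 5, without either of which the difference fell under 4-fold, from a log2 fold of -2.11 to -1.92 without the latter. OHC-like cells, with a mean of 360 CPM, stood within 1 SD of the OHCs, and 7 of 11 lay below every WT_P60 SC.

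Tuba1b, the widely expressed alpha tubulin of dividing and non-dividing cells, separated both wild-type groups fully. It was detected in 12 of 17 OHCs (70.6%, exact Clopper-Pearson 95% interval 44.0 to 89.7%), with a median of 28.1 and a highest value of 97.6 CPM. All 16 WT_P60 SCs held it, at 147 CPM in the lowest cell, 481 at the median and 742 in the highest. The mean was 12.6-fold lower in OHCs. The 3 groups of the mouse model fell between, with means of 99.6 ± 108 CPM in OHC-like cells (n = 11), 141 ± 121 in nascent HCs (n = 16) and 233 ± 190 in failing SCs (n = 15). The WT_P60 SC mean of 455 CPM stood more than 1 SD above the next group, while the model groups were within 1 SD of each other. In OHC-like cells the level was 4.53-fold lower than in WT_P60 SCs, and 9 of 11 cells lay below every WT_P60 SC.

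Tuba1c, a close copy of Tuba1b, was low in every group, and its order differed. OHCs held 0 to 3.84 CPM and WT_P60 SCs 9.14 to 42.8 CPM, again with no overlap, and the OHC mean of 1.65 CPM was 8.67-fold lower. Model cells exceeded both wild types, with means of 30.5 CPM in OHC-like cells, 53.5 in nascent HCs and 70.5 in failing SCs. These higher means came from part of the cells: 4 of 11 OHC-like cells, 8 of 16 nascent HCs and 8 of 15 failing SCs lay above every WT_P60 SC, while 5, 4 and 3 cells lay below every one. The spread within each model group was about as large as its mean, with SDs of 32.3, 47.4 and 63.3 CPM, and none of the model groups differed from WT_P60 SCs by 4-fold.

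Tuba4a, an isotype known from neurons, muscle and platelets whose gene does not encode the C-terminal tyrosine, was the member that differed most between OHC-like cells and failing SCs. The 16 WT_P60 SCs held 355 CPM in the lowest cell, 864 at the median and 1263 in the highest. In OHCs it was detected in 5 of 17 cells (29.4%, interval 10.3 to 56.0%), with a median of 0 and a highest value of 318 CPM in OHC 7, still under every WT_P60 SC. The means of 35.4 ± 80.3 CPM in OHCs and 825 ± 228 in WT_P60 SCs lay 22.7-fold apart, and without OHC 7 the log2 fold of -4.50 came to -5.46. OHC 7 also held 61.2 CPM of Stmn1 and 86.5 CPM of summed SC markers, against 0 in 12 of 17 OHCs. The measures did not move together in every OHC: OHC 6 held the most SC markers, 496 CPM, with no Tuba4a, OHC 13 held 210 and 82.9 CPM, and OHCs 11 and 16 held 109 and 63.0 CPM of Tuba4a with no count of SC markers. Failing SCs held 0 to 253 CPM with a median of 62.0, so all 15 cells lay below every WT_P60 SC, and their mean of 103 CPM was 7.96-fold lower. OHC-like cells held a median of 506 CPM and at most 941, and nascent HCs 94.5 to 1481 with a median of 538. Both overlapped the WT_P60 SCs. The lowest OHC-like value, 0.447 CPM, belonged to cell 4, which also had the fewest detected genes of all 75 cells (3348). The other 10 OHC-like cells held 191 CPM or more. Against failing SCs, Tuba4a was 4.97-fold higher in OHC-like cells, and 8 of 11 OHC-like cells lay above every cell of the other group. In the 2 library runs that held both groups, the log2 fold was 2.59 in run A (1 cell against 4) and 1.76 in run E (2 cells against 1).

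Tuba8, an alpha tubulin that is no member, known from muscle, testis and brain, was drawn in by the rule for the largest changes in the microtubule lists. It ran opposite to the members. All 17 OHCs held it, at 25.0 CPM in the lowest cell, 340 at the median and 975 in the highest. It was found in few cells of the other groups: 4 of 16 WT_P60 SCs at no more than 47.5 CPM, 4 of 11 OHC-like cells at most at 119 CPM, 4 of 16 nascent HCs at most at 65.7, and 4 of 15 failing SCs, where 1 cell reached 183 CPM. The mean was 38.0-fold higher in OHCs than in WT_P60 SCs, and 16 of 17 OHCs lay above every WT_P60 SC. OHC-like cells, at 29.5 ± 47.2 CPM, were 12.5-fold lower than OHCs. An antisense gene, Gm15856, covers 368 exon bases of Tuba8 and had mean levels of 0.703 CPM in OHCs and 0.758 CPM in WT_P60 SCs.

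**Figure D1:**
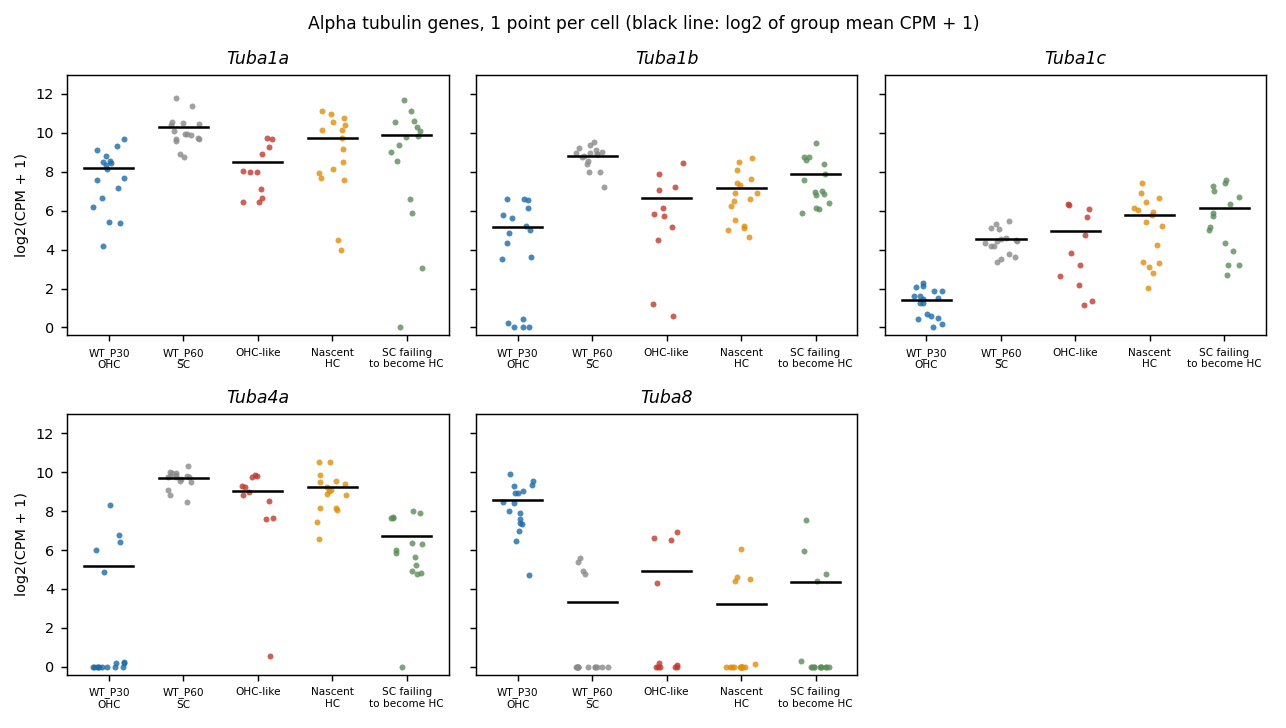
Level of the 4 alpha tubulin members and Tuba8 in each of the 75 cells, as log2(CPM + 1), by cell group; each point is a cell and the black line is the log2 of the group's mean CPM plus 1. WT_P60 SCs sit above OHCs in Tuba1b, Tuba1c and Tuba4a with no overlap, failing SCs sit below WT_P60 SCs in Tuba4a, and Tuba8 is highest in the OHCs, where all 17 cells hold 25.0 CPM or more.

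Set per kilobase of exon, which adjusts for gene length only, Tuba1a was the highest of the 4 members and Tuba8 in all 16 WT_P60 SCs. Its mean share there was 56.2% ± 9.62 (SD over cells), followed by Tuba1b with 21.8% and Tuba4a with 21.0%. Stretches in common with other genes made up 65.8% of Tuba1a but 12.5% of Tuba8. How reads that fit several genes were counted is not stated, so shares between these genes are uncertain. In OHCs, Tuba8 took 47.2% ± 29.2 and Tuba1a 45.6% ± 31.1 on average. Single OHCs differed widely: Tuba8 was highest in 9 of 17, with shares from 5.47% to 93.7%, and Tuba1a in the other 8. OHC-like cells held 50.7% Tuba1a, 33.6% Tuba4a and 2.49% Tuba8. Nascent HCs were close to them, with 30.4% Tuba4a, and failing SCs held 58.7% Tuba1a, 24.5% Tuba1b and 8.95% Tuba4a. The order depended on the division by length. In shares of counts, Tuba4a led in OHC-like cells, with 47.2% against 40.1% for Tuba1a, and was highest in 7 of 11 cells. Tuba1a was then highest in 11 of 16 WT_P60 SCs.

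Tubb4b, a beta tubulin found in most tissues and known for its place in cilia, had the highest level per exon length of the beta members in 8 of 16 WT_P60 SCs and in most cells of each other group. It was detected in 15 of 17 OHCs, with a median of 131 CPM and a highest value of 335. WT_P60 SCs held 176 to 1098 CPM with a median of 382, and 11 of 17 OHCs lay below all of them. The mean in OHCs was 3.48-fold lower. Nascent HCs were highest, from 480 to 3120 CPM with a median of 1132: every one of the 16 lay above the WT_P60 SC median, 8 lay above every WT_P60 SC, and the mean of 1304 ± 693 CPM was 2.56-fold higher than the 510 ± 260 of WT_P60 SCs. OHC-like cells held 46.5 to 2345 CPM around a median of 769. Their mean of 817 CPM was 5.57-fold above that of OHCs, with 10 of 11 cells above every OHC. Failing SCs had a mean of 490 CPM and ranged from 13.0 to 1650.

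Tubb2a, a major beta tubulin of neurons and also of other tissues, was highest in WT_P60 SCs on means. They held 53.2 to 1063 CPM with a median of 451. In OHCs it was detected in 3 of 17 cells (17.6%, interval 3.80 to 43.4%), the highest at 129 CPM, and 15 of 17 lay below every WT_P60 SC. The means of 13.9 and 432 CPM lay 28.9-fold apart, a log2 fold of -4.86 that came to -5.80 without OHC 7 and -5.48 without OHC 10. Failing SCs had a mean of 93.1 ± 110 CPM, 4.60-fold below WT_P60 SCs. OHC-like cells had a median of 79.5 CPM and a mean of 231, the latter raised by cell 6 at 1463 CPM, and nascent HCs, all 16 of which held it, a median of 115 and a highest value of 1092 CPM. Both means were within 1 SD of that of WT_P60 SCs.

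Tubb2b, its close copy and a beta tubulin known from developing neurons, moved the other way in model cells. WT_P60 SCs held 0 to 89.7 CPM with a median of 31.4, and it was detected in 3 of 17 OHCs. Nascent HCs held 46.9 to 786 CPM with a median of 153, and 13 of 16 lay above every WT_P60 SC. Failing SCs held 2.23 to 782 CPM with a median of 174, and OHC-like cells 0.893 to 456 CPM with a median of 110. The means exceeded that of WT_P60 SCs by 7.60-fold in nascent HCs, 6.33-fold in failing SCs and 4.37-fold in OHC-like cells. The last size fell under 4-fold without OHC-like cell 1 (log2 fold of 1.80) or cell 9 (1.99), against 2.13 with all cells. The means also differed by run. The 4 failing SCs of run A had a mean of 46.2 CPM (2.23 to 76.8), within the range of WT_P60 SCs. Those of run C had 274 CPM (10 cells) and that of run E 353 CPM (1 cell). The 2 OHC-like cells of run E had a mean of 42.3 CPM. Per exon length, Tubb2a exceeded Tubb2b in all 16 WT_P60 SCs, whereas Tubb2b exceeded Tubb2a in 12 of 15 failing SCs, 8 of 16 nascent HCs and 6 of 11 OHC-like cells. Since reads can be split between both copies, the direction in each cell carries that uncertainty.

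The other beta genes were found in few cells or at low levels. Tubb3, the beta tubulin used as a marker of neurons, was detected in 2 of 17 OHCs, 4 of 16 WT_P60 SCs, 2 of 11 OHC-like cells, 5 of 16 nascent HCs and 3 of 15 failing SCs. Its median was 0 in every group. The mean of 75.0 ± 219 CPM in nascent HCs came from nascent HC 15 at 861 CPM and nascent HC 11 at 259 CPM, and the 12.9-fold excess over WT_P60 SCs, a log2 fold of 3.69, came to 2.00 without the former. Tubb5, a beta tubulin of many tissues and of dividing cells, was patchy in all groups, with medians from 0 in OHCs to 4.32 CPM in failing SCs and single cells up to 434 CPM in WT_P60 SCs. Tubb6, a beta tubulin known from muscle and from cells of mesenchymal origin, had counts in 3 of 75 cells, nascent HCs 1, 4 and 15, at 15.1, 5.15 and 13.3 CPM. No cell of the other 4 groups had a count, which allows shares of up to 19.5 to 28.5% of cells, depending on the group's number of cells (exact Clopper-Pearson). It was the only member that did not pass the filter on low counts.

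**Figure D2:**
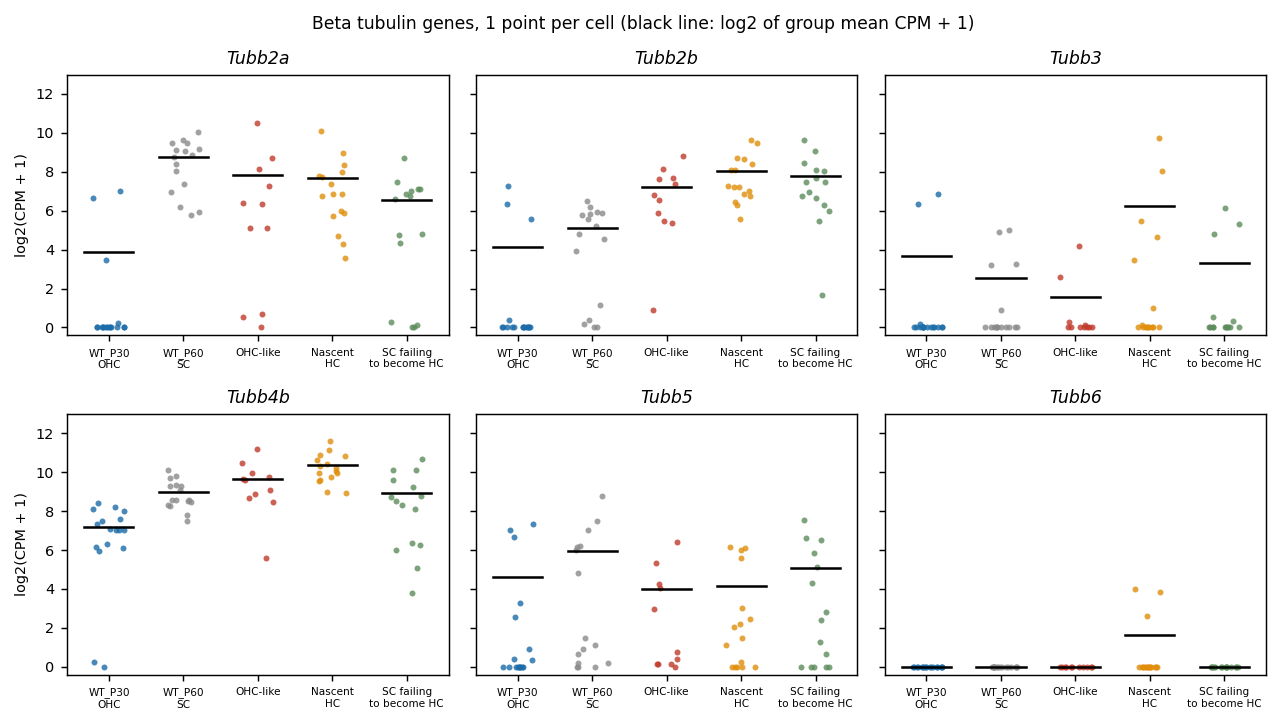
Level of the 6 beta tubulin members in each of the 75 cells, as log2(CPM + 1), by cell group; each point is a cell and the black line is the log2 of the group's mean CPM plus 1. Tubb4b is highest in nascent HCs (480 to 3120 CPM), Tubb2a is low or at 0 in OHCs, Tubb2b is higher in the 3 model groups than in WT_P60 SCs, and Tubb3 and Tubb6 rest on few cells.

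Tubb4b took a mean of 74.6% ± 30.0 of the length-scaled beta level in the 16 OHCs with any beta count, 68.4% in OHC-like cells, 68.3% in nascent HCs, 52.2% in failing SCs and 48.9% in WT_P60 SCs. Tubb2a held 44.8% ± 21.6 in WT_P60 SCs and between 5.83% and 16.2% elsewhere. Tubb2b held 2.92% in WT_P60 SCs, 14.4% in OHC-like cells, 14.2% in nascent HCs and 29.0% ± 20.5 in failing SCs. In 1 OHC, Tubb3 made up 99.9% of the beta level. That cell, OHC 4, held 116 CPM of Tubb3, in a group whose summed beta level went from 0 to 424 CPM with a median of 229.

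**Figure D3:**
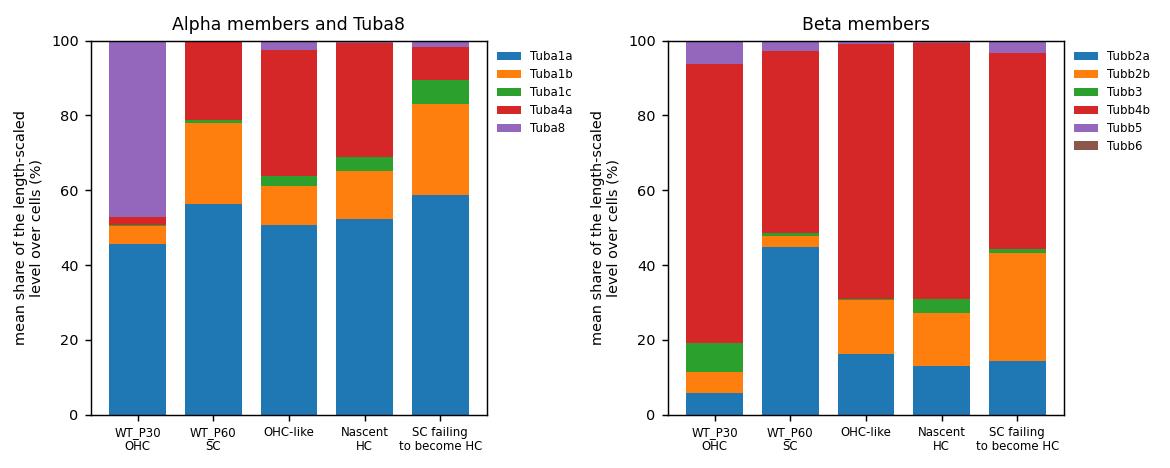
Mean share over cells, in percent, of each gene in the summed level per kilobase of exon of the alpha genes (left, with Tuba8) and of the beta members (right), by cell group. Tuba8 fills 47.2% of the alpha bar of OHCs, and Tubb2a fills 44.8% of the beta bar of WT_P60 SCs. SDs over cells, given in the text, are wide, and reads shared between genes leave the shares uncertain.

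A sum over the family depends less on how reads were split among copies. The 10 members summed to 576 ± 247 CPM in OHCs, 3604 ± 1111 in WT_P60 SCs, 2221 ± 1403 in OHC-like cells, 3538 ± 1454 in nascent HCs and 2209 ± 1534 in failing SCs. The highest OHC, at 1042 CPM, lay below the lowest WT_P60 SC, at 2059 CPM. With Tuba8 added the sum in OHCs was 956 ± 285 CPM and the difference from WT_P60 SCs was 3.78-fold, in place of 6.25-fold, still with no overlap. In nascent HCs the sum was within 1.02-fold of that of WT_P60 SCs. On means, alpha members were 1.53-fold lower, at 1669 ± 787 against 2563 ± 1008 CPM. Beta members were 1.79-fold higher, at 1868 ± 848 against 1041 ± 454 CPM. Both differences were smaller than the larger SD of cells. In the alpha sum 3 of 16 nascent HCs lay below every WT_P60 SC, and in the beta sum 7 lay above every one. Compared with WT_P60 SCs, OHC-like cells held 2.55-fold less of the alpha members, at 1006 ± 581 CPM, while beta members, at 1216 ± 972 CPM, differed by less than the spread of cells. A lower CPM can reflect less tubulin RNA or more of other RNA in a cell, and both cannot be told apart here.

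The number of members detected in a cell was lowest in OHCs, which also had fewer genes detected in all, 3630 to 5431 against 5542 to 7743 in WT_P60 SCs and 6856 to 9045 in nascent HCs. It ranged from 2 to 7 in OHCs with a median of 4.00, from 3 to 9 in OHC-like cells with a median of 7.00, from 7 to 10 in nascent HCs, and from 6 to 8 both in WT_P60 SCs and in failing SCs. Tuba1a was found in every OHC and was the only member of which this held. In WT_P60 SCs 6 members, and in nascent HCs 7, were found in every cell.

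Between OHCs and WT_P60 SCs, 5 of 10 members were more than 4-fold lower in OHCs (Tuba1a, Tuba1b, Tuba1c, Tuba4a and Tubb2a), where 19.1% of the 11443 genes that passed the filter were, and 0 were more than 4-fold higher, where 11.7% of genes were. In 3 of these (Tuba1b, Tuba1c and Tuba4a) cells of both groups did not overlap, against 1.96% of genes in that direction, and 0 did so in the other direction, against 1.08%. The median log2 fold of the 9 members that passed the filter was -2.11, and that of all genes was -0.13. The sign was negative in 8 of 9, the exception being Tubb3. Since reads may be split among Tuba1a, Tuba1b and Tuba1c, these members do not count as fully separate genes.

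Against WT_P60 SCs, OHC-like cells had 1 member more than 4-fold higher (Tubb2b), where 16.3% of genes were, and 1 lower (Tuba1b), where 8.98% were, which is near the background. With DESeq2's size factors, TMMwsp (a form of TMM for many zeros), medians over cells or a pseudocount of 10 CPM, Tubb2b was no longer past 4-fold, and 0 members were higher. Their cells stood apart in 0 members, against 0.830% of genes higher and 0.935% lower. Nascent HCs had 2 higher (Tubb2b and Tubb3; 15.7% of genes) and 0 lower (7.52% of genes), and 0 without overlap (0.586% of genes higher and 0.874% lower). Failing SCs had 1 higher (Tubb2b; 12.7% of genes) and 2 lower (Tuba4a and Tubb2a; 5.76% of genes), and in Tuba4a their cells did not overlap with WT_P60 SCs, as was so for 0.481% of genes, and 0 members did so in the higher direction (0.0437% of genes). These 3 comparisons and the one with OHCs share the same 16 WT_P60 SCs. The median log2 folds of members were -0.90, -0.44 and -0.39 in OHC-like cells, nascent HCs and failing SCs, beside 0.30, 0.32 and 0.22 for all genes.

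**Figure D4:**
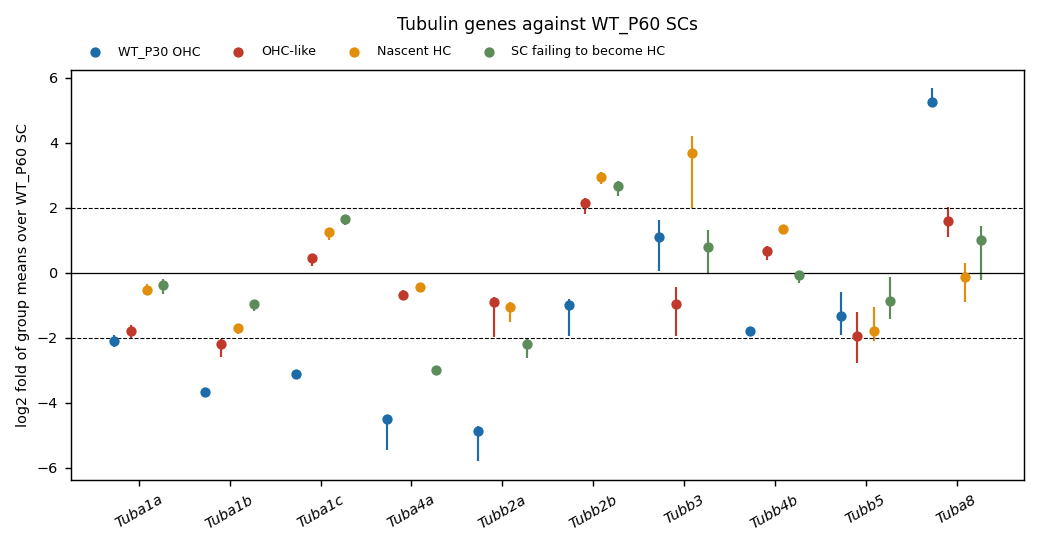
Log2 fold of group means (with 1 CPM added) of each tubulin gene in 4 groups over WT_P60 SCs; vertical lines span the values when each cell is left out in turn, and dashed lines mark 4-fold. Tuba1a, Tuba1b, Tuba1c, Tuba4a and Tubb2a lie past 4-fold below 0 in OHCs, as do Tuba4a and Tubb2a in failing SCs and Tuba1b in OHC-like cells. Tubb2b lies above 4-fold in all 3 model groups, Tubb3 lies at 3.69 in nascent HCs, and Tuba8 lies at 5.25 in OHCs. The lines of Tuba1a in OHCs (to -1.92) and of Tubb2b in OHC-like cells (to 1.80) reach inside 4-fold.

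Set against OHCs, the OHC-like cells held more of most tubulins. More than 4-fold higher were 5 members (Tuba1c 11.9-fold, Tuba4a 14.2-fold, Tubb2a 15.5-fold, Tubb2b 8.66-fold and Tubb4b 5.57-fold), where 21.6% of genes were, and 1 was lower (Tubb3, 4.17-fold), where 6.65% were. The Tubb3 value rested on OHCs 4 and 9, at 116 and 80.7 CPM, and its log2 fold of -2.06 came to -1.01 without OHC 4 and -1.45 without OHC 9, and to -3.05 without OHC-like cell 7. No member separated both groups fully, since the OHC-like cells with the lowest values reached into the OHC range. Of all genes, 0.717% were higher and 0.306% lower with no overlap. OHC-like cell 4 was 1 of these: it held 87.1 CPM of Tuba1a and 551 CPM of Tubb4b and under 2 CPM of each other member. Without it the log2 fold of Tuba4a was 3.96 and that of Tubb2b 3.25. Left out in turn, OHC-like cell 6 brought Tubb2a from 3.96 to 2.87, OHC 7 brought it to 4.90 and Tuba4a from 3.83 to 4.78, OHC 10 brought Tubb2a to 4.58, and OHC 9 brought Tubb2b from 3.11 to 4.08. Tuba1a, at 1.24-fold, changed sign with DESeq2's size factors, under which its log2 fold of 0.30 came to -0.19. The summed level was 3.85-fold higher in OHC-like cells, and 8 of 11 lay above every OHC. With Tuba8 added the sum was 2.35-fold higher, and the alpha sum went from 2.76-fold to 1.39-fold higher.

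Within the mouse model, OHC-like cells differed from failing SCs by more than 4-fold in 1 member, Tuba4a, which was higher (9.49% of genes were), and in 0 members that were lower (8.31% of genes were). The median log2 fold of members over all cells was -1.08 beside 0.05 for all genes. The summed level was the same to within 1.01-fold, although its log2 fold was 1.04 in run A and -0.84 in run E. Most members also changed sign between run A (1 cell against 4) and run E (2 cells against 1). Log2 folds were 1.82 and -2.09 for Tuba1b, and 3.28 and -3.03 for Tubb2b. Tuba1c, Tubb2a, Tubb4b and Tubb5 likewise went from higher to lower, while Tuba1a and Tuba4a were higher in both runs. The median of members therefore does not stand for a lowering seen in both runs. In 0 members did the cells stand apart, against 0.0699% of genes higher. From nascent HCs they differed by that size in 1 member, Tubb3, which was lower (3.37% of genes), and in 0 that were higher (2.14% of genes), and 0 members stood apart, as did 0.00874% of genes that were higher. That value rested on nascent HC 15, without which it came to -2.97 on the log2 scale from -4.66, and it came to -5.64 without OHC-like cell 7. Tubb6 had no count in OHC-like cells, against counts in 3 of 16 nascent HCs. All other members were within 2.40-fold, with Tuba1a and Tubb4b lower in OHC-like cells at 2.40-fold and 1.60-fold. In run B, which held the most cells of both groups (5 and 6), log2 folds were -0.51 for Tuba1a, -0.22 for Tubb4b and 0.08 for Tuba4a. The same members stood at -0.80, -2.44 and -0.06 in run A (1 cell each), -0.95, -0.63 and -0.65 in run D (3 and 4), and -2.78, -2.43 and -1.09 in run E (2 and 4).

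Genes that fold, modify or bind tubulin were taken from 7 lists with 125 genes, of which 96 passed the filter. The 21 genes for tubulin folding, the cofactors, chaperonin subunits and prefoldins that bring new tubulin into shape, all passed it. Between OHCs and WT_P60 SCs, and between OHC-like cells and WT_P60 SCs, 0 of 21 were past 4-fold in either direction, with median log2 folds of 0.23 and 0.61. The counts of the other lists stand beside shares of all genes of 11.7% higher and 19.1% lower in OHCs, and 16.3% higher and 8.98% lower in OHC-like cells. Of 19 genes for proteins that bind along the microtubule, 4 were more than 4-fold higher and 4 lower in OHCs than in WT_P60 SCs, and 6 were higher and 3 lower in OHC-like cells, with a median of 1.57 beside 0.30 for all genes. Of 8 severing and depolymerising genes, 2 were higher and 2 lower in each. Of 19 tubulin-modifying enzymes, 1 was higher and 3 were lower in OHCs, and 2 were higher and 3 lower in OHC-like cells. Of 16 genes for nucleation and anchoring, 2 and 2 were past 4-fold in OHCs, and 1 and 0 in OHC-like cells. Of the 11 genes for binding microtubule ends, 1 was higher and 1 lower in OHCs, and 2 were higher and 0 lower in OHC-like cells. Over all lists, 11 of 96 were higher and 13 lower in OHCs, and 13 were higher and 8 lower in OHC-like cells, which is near or under the shares of all genes.

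The genes below were named for the size of their fold in these same comparisons, so their large folds follow in part from that choice. Stmn1, encoding stathmin, which binds free tubulin dimers and favours disassembly, differed more between OHCs and WT_P60 SCs than any tubulin member. WT_P60 SCs held 1531 to 2908 CPM with a median of 2103, while OHCs had a median of 0 and a highest value of 61.2, a 466-fold difference with no overlap. The OHC mean of 3.61 CPM came almost wholly from OHC 7, without which the log2 fold of -8.86 was -11.05. OHC-like cells held 0.223 to 545 CPM, 40.6-fold above OHCs on means (log2 fold of 5.34, and 7.53 without OHC 7). Nascent HCs had a median of 109 CPM and failing SCs a median of 121 CPM, and single cells of both reached the SC range, with highest values of 2662 and 2128 CPM.

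Map2 and Map1b, which bind and stabilise microtubules and are best known from neurons, had 0 counts in all 16 WT_P60 SCs. OHCs held Map2 at 8.92 to 506 CPM, at least 551-fold higher than a floor of 3 counts in each WT_P60 SC, and Map1b at 0 to 249 CPM, at least 145-fold higher on means. In OHC-like cells the larger of both was Map1b, at 41.7 to 916 CPM and at least 722-fold higher, while Map2 had a mean of 43.2 CPM, at least 103-fold higher. Nascent HCs held a median of 208 CPM of Map1b, and failing SCs a median of 46.0 CPM. Their means of Map2 were 52.7 and 35.1 CPM. Tppp3, which promotes the bundling of microtubules, was near absent from both wild types, with means of 5.86 and 1.62 CPM, and had means of 272 ± 333 CPM in OHC-like cells and 341 ± 559 in nascent HCs, but 42.7 ± 102 in failing SCs. Its 39.7-fold excess in OHC-like cells over OHCs was a log2 fold of 5.31, and 8.09 without OHC 4.

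Map4, the microtubule-binding protein of most non-neuronal cells, was held by all 16 WT_P60 SCs, at 10.2 to 666 CPM. All 11 OHC-like cells lay below them, at 8.31 CPM or less, and the means of 0.792 and 291 CPM lay 163-fold apart, a log2 fold of -7.35 that came to -8.13 without OHC-like cell 10. Failing SCs held at most 6.74 CPM, nascent HCs had a mean of 3.97 CPM, and OHCs had a median of 0 and a mean of 18.5. The 10.9-fold difference of OHC-like cells from OHCs, a log2 fold of -3.45, came to -2.24 without OHC 11 and -4.23 without OHC-like cell 10. Ttll3, a ligase that adds glycine to tubulin tails, had means of 315 CPM in OHCs and 350 in WT_P60 SCs. OHC-like cells had 22.8 CPM, 14.8-fold below WT_P60 SCs and 13.3-fold below OHCs. Log2 folds of -3.89 and -3.73 came to -4.52 and -4.37 without OHC-like cell 1. Nascent HCs had a mean of 10.9 CPM and failing SCs 52.3, so the low level was not particular to OHC-like cells. Mtus2, a microtubule-associated protein, had means of 9.41 CPM in OHC-like cells and 175 in WT_P60 SCs, a 16.9-fold difference. Its log2 fold of -4.08 came to -4.68 without OHC-like cell 9 and -4.77 without cell 11. Mtus2 was also low in nascent HCs (mean 8.87 CPM) and failing SCs (0.956 CPM), and OHCs had 45.8 CPM. Clip1, which tracks growing plus ends, had means of 0.331 CPM in OHCs, 29.4 in WT_P60 SCs and 32.6 in OHC-like cells. Its means were 59.3 CPM in nascent HCs and 88.4 in failing SCs. Tubd1, encoding delta tubulin of centrioles, had 0 counts in OHCs and a mean of 22.4 CPM in WT_P60 SCs, at least 50.5-fold higher. That mean came from 5 of 16 cells, with a median of 0 and a highest value of 122 CPM.

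**Figure D5:**
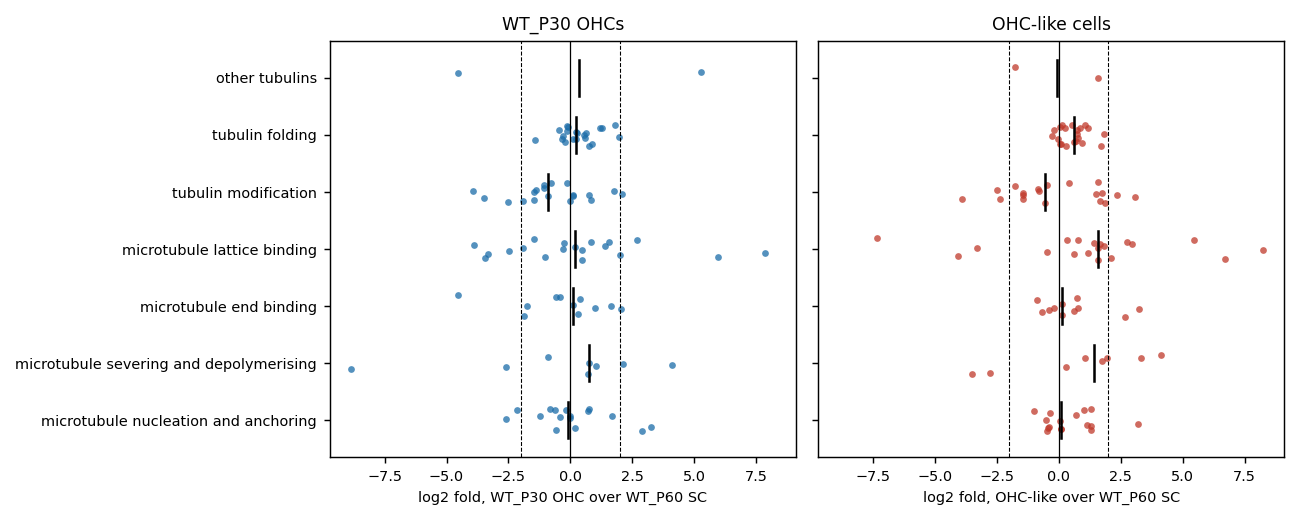
Log2 fold of group means (with 1 CPM added) over WT_P60 SCs for the 96 genes of 7 microtubule lists that passed the filter, in OHCs (left) and OHC-like cells (right); each point is a gene, black lines are list medians and dashed lines mark 4-fold. Tubulin folding genes lie within 4-fold in both, and lattice-binding genes spread on both sides of 0, with a median of 1.57 in OHC-like cells.

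Across the 75 cells, the alpha and the beta member with the widest range of group means were Tuba1c and Tubb2a, with spans of 4.75 and 4.86 on the log2(CPM + 1) scale. The genes most like Tuba1c by Pearson's r of log2(CPM + 1), members left out, were Gm14150 (0.79), Ggh (0.78), Tspo (0.77), Wls (0.77) and Cd164 (0.77). Gm14150 had 523 stretches of 100 bases in common with Tuba1b, so its counts can be tubulin reads. Those most like Tubb2a were Dpp4 (0.73), Ehd3 (0.73), Rassf6 (0.71), Rab8b (0.70) and Stx7 (0.69), each of which was highest in WT_P60 SCs. Among the members, the highest correlations were those of Tuba1b with Tuba1c (0.71), which may share reads, and of Tuba4a with Tubb2a (0.70), which had no such stretch in common. Tuba8 ran against Tuba4a (-0.50). Cells of a group share their library runs, so these values describe differences between groups and runs as much as between cells.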

How the data were processed

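Raw counts of reads per gene in 75 single cells were analysed. Per the labels and the study's methods, the authors checked reads with FastQC 0.11.9, trimmed them with Trimmomatic 0.39, aligned them with HISAT2 2.1.0 to GRCm38 and deposited counts made with HTSeq 0.10.0, without normalization. Strand use, annotation release and the treatment of reads that fit several genes are not given in the sources used here.

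Groups came from the sample titles. TMM factors and a filter with a minimum count of 10 (edgeR 4.0.16, R 4.3.3) were computed over all cells, which kept 11443 of 55291 genes. A viral element row, 0.0254% of counts, was left out. No 2 cells held the same values. CPM were averaged over cells, and folds are ratios of means with 1 CPM added. Because cells are not replicates and no animal is named, no significance test was run, and a size of 4-fold was used to count genes. DESeq2 1.42.0 served for size factors only. Total counts of 4264780 to 22934062 per cell set the precision. Detection means at least 1 CPM of the unscaled library, and its intervals are exact Clopper-Pearson at 95%. The fold computation was tested on simulated data.

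The members and the gene lists were chosen with earlier results of these data known. All 10 members were named. From the microtubule lists, the 3 genes in each direction with the largest fold past 4-fold were named in 3 comparisons (each pair among OHCs, OHC-like cells and WT_P60 SCs), with marker genes of lists at or above 10 CPM and the 5 genes most like the alpha and the beta member of widest range. Exon lengths and transcripts came from GENCODE M21. Sequences of the alpha genes and 1 marker gene are not reported here. Levels between genes were compared per exon length. Alternatives were other scalings, pseudocounts, averages, thinning, leaving out cells, single library runs and 2-fold. Python 3.11.15, numpy 2.4.6, pandas 2.3.3, scipy 1.17.1 and matplotlib 3.10.9 were used.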

Additional observations from a re-analysis of the deposited data

How the results depend on the processing

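No paired analysis was possible because no test was run and cell numbers only name cells. Of 840 fold values of single members under the alternatives, 808 stayed within 1 SD of cells, 32 moved further and 0 of those past 4-fold changed sign. Tubb6, without a count in either group of most comparisons, could not move in these. The SD was that of log2(CPM + 1) over single cells, which is wide for genes found in few cells, such as Tubb3. Scaling turned the sign of 2 of 70 folds, both small: Tuba1a in OHC-like cells over OHCs, and Tubb4b in failing SCs over WT_P60 SCs, from -0.06 to 0.03. The summed tubulin level stayed within 1 SD except for OHC-like cells against nascent HCs within library run E, where its log2 fold was -2.43 in place of -0.67.

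The number of members past 4-fold changed by more than 1.5 times as follows. At 2-fold it was 8 in place of 5 for OHCs over WT_P60 SCs, 4 in place of 2 for OHC-like cells over WT_P60 SCs, 8 in place of 2 for nascent HCs over WT_P60 SCs, and, for OHC-like cells, 7 in place of 1 over failing SCs and 3 in place of 1 over nascent HCs. OHC-like cells over WT_P60 SCs had 1 with a pseudocount of 10 CPM and 1 to 3 with a cell left out. Over failing SCs they had 2 with library size only or a pseudocount of 0.1 CPM, 1 to 2 with a cell left out, 4 in run A and 5 in run E. Over nascent HCs they had 0 with medians over cells, 2 with a pseudocount of 0.1 CPM, 2 in run A, 3 in run B and 8 in run E. Runs A and E held 1 to 4 cells of each group.

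With DESeq2's size factors, the median log2 fold of all genes moved from -0.13 to 0.12 for OHCs and from 0.32 to 0.14 for nascent HCs over WT_P60 SCs, and from 0.54 to 0.14 for OHC-like cells over OHCs, with 2137 genes higher and 1107 lower past 4-fold in place of 2473 and 761, and over nascent HCs 428 were higher and 347 lower in place of 245 and 386. Without the filter on low counts, more than 1.5 times as many genes were past 4-fold in all 7 comparisons (for OHCs over WT_P60 SCs, 2321 higher and 3211 lower in place of 1338 and 2188), a smaller share of the 55291 genes. Wild-type groups could not be compared within library runs. Values of Tubb3 and Tubb6 rest on few cells.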
